A study of Mus musculus with 46 samples.

Results

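The comparison described here is imeglimin against control in the proximal small intestine of mice that had the drug in their drinking water for 4 weeks. It rests on 6 of the 46 samples in the series, 3 libraries labelled imeglimin and 3 labelled control, chosen by their labels alone. All were bulk RNA-seq libraries of poly(A) RNA from intestinal tissue of male C57BL/6J mice. The treated mice drank 3 mg/mL of imeglimin, and 3 further proximal libraries came from mice that drank 3 mg/mL of metformin for 4 weeks. The labels name no mutant allele and give no age, no pooling of animals and no account of what the controls drank beyond the word control. Each library carries a batch number that equals its replicate number. Because nothing says that the libraries of a group came from separate mice, p-values measure the spread between these libraries, which may be technical. The same drugs were given for 4 weeks in the middle and distal small intestine and the colon libraries, 6 imeglimin and control libraries in each, and these serve below to show where the proximal response differed.

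Imeglimin is an oral glucose-lowering drug, a tetrahydrotriazine made by closing a ring on the biguanide scaffold of metformin. The proximal small intestine is the first part of the gut to meet an oral drug and the site of most sugar, fat, mineral and drug uptake. Its enterocytes carry cytochrome P450 enzymes, carboxylesterases and glutathione S-transferases that modify foreign compounds before they reach the portal blood. The lamina propria below them holds plasma cells, macrophages, fibroblasts and a dense capillary bed, so that whole tissue RNA mixes epithelial and other transcripts.

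Total counts lay between 32246196 and 42004941 per control or imeglimin library. Values are given as CPM, read counts scaled to a common library size after the TMM correction of edgeR. Gata4, a transcription factor of the proximal gut, stood at 114 to 118 CPM in the controls and 96.6 to 102 CPM with imeglimin, while Fabp6, the ileal bile acid binding protein, was at most 0.473 CPM in these 6 libraries. The defining genes Tff2 and Bpifb1 of the Brunner glands of the duodenum were at 0 in all 9 proximal libraries, and 6 of 7 Brunner gland markers were under 1 CPM in each of them. Gata4 and Fabp6 go with the label of an upper, non-ileal piece of gut, but they are picked genes. Of 17 listed distal segment genes 1 was under 1 CPM in all 9 libraries, and of 17 listed proximal segment genes 3 were. The lists therefore do not settle the position of the piece, and Tff2 and Bpifb1 of Brunner glands were not detected in it.

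Of 17295 genes tested, 200 changed with imeglimin, 68 upward and 132 downward, which is 1.16% of the genes tested (0.393% upward and 0.763% downward). Here and below a gene is called changed when its adjusted p, from edgeR's quasi-likelihood test with Benjamini-Hochberg adjustment over all genes tested, is under 0.05. Without the adjustment, 2961 of the 17295 genes had a p under 0.05, both directions together. Most changes were small: the median absolute log2 fold change of the called genes was 0.61, and 9 rises and 29 falls were larger than 2-fold. None of the 200 had a control library inside the range of the imeglimin libraries, but 20.9% of all genes tested were separated in that way. Called genes thinned out quickly when the fit was changed. With the replicate block 80 genes were called, and 71 of the 200 were among them. Without control library 1 there were 11, without imeglimin library 2 there were 9, and 8 genes were called in all 14 alternative fits. These 8 were Npl, Frat1, Cyp2c55, Gstm3, Slc30a10, Igkv8-24, Cd55 and Ppp1r10, of which Cd55 and Ppp1r10 were singled out after their values were seen. The direction was steadier than the call, since 200 of the 200 kept it in each of those fits. For most genes described below, either the number of the 14 alternative fits in which the gene stayed called is given or its adjusted p with the replicate block, where that ended the call. Calls lost with the block were often lost in other fits too. Atf3, Bmp4 and Slc51a were called in 1 of the 14 fits, Dcn in 2, and Fbp1, Slc51b, Kdr, Cd4, Igkv8-19 and Upk3b in 3.

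**Figure D1:**
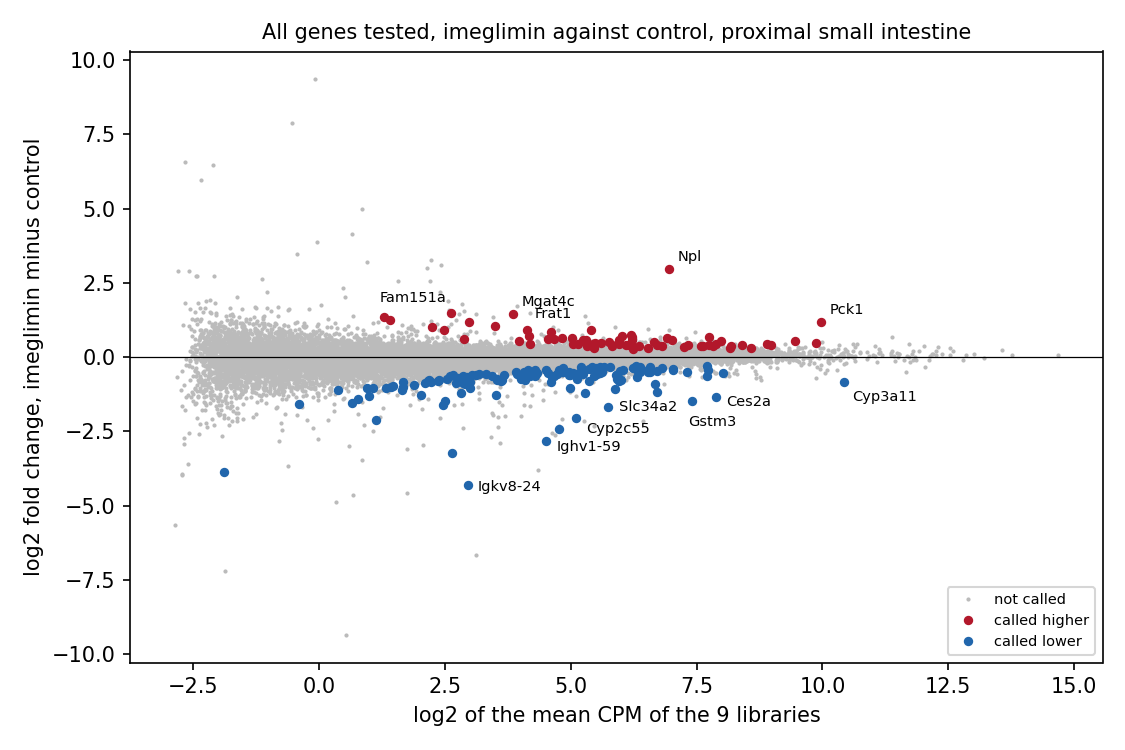
Each point is 1 of the 17295 genes tested, with the log2 of its mean CPM over the 9 proximal libraries on the horizontal axis and the log2 fold change of imeglimin against control on the vertical axis. The 68 genes called higher are red and the 132 called lower are blue, and most lie within 1 log2 unit of 0, with Npl standing apart among abundant genes that rose.

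The largest called rise was in Npl, N-acetylneuraminate pyruvate lyase, the enzyme that splits free sialic acid into N-acetylmannosamine and pyruvate. Npl stood at 13.0, 22.9 and 17.1 CPM in the controls and at 91.2, 180 and 145 CPM with imeglimin. Even the lowest imeglimin library was well above the highest control. The fold change was 7.82 (log2 2.97 ± 0.25 SE, adjusted p = 0.00153), with a 95% interval of 2.42 to 3.51 on the log2 scale, and the call held in 14 of 14 alternative fits. Nans, which makes sialic acid and was looked up after the values of Npl were seen, stood at 38.7 to 46.1 CPM in the controls and 39.8 to 42.9 CPM with imeglimin (adjusted p = 0.799).

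Npl belongs to a list of 31 lysosome genes and targets of TFEB, the transcription factor that switches on lysosome formation through E-box elements. Of these 31, 2 rose and none fell, beside 0.393% of all genes tested called higher and 0.763% called lower. The risers were Npl and Ctsz, the lysosomal protease cathepsin Z. Ctsz went from 164 to 188 CPM in the controls to 222 to 263 CPM (log2 0.44 ± 0.08 SE, adjusted p = 0.0329, and 0.0653 with the replicate block). The median of the list was a log2 difference of 0.07, beside 0.0002 over all genes tested, so the lysosome list as a group moved little. The bases around the E-box match ahead of the RefSeq start of Npl are shown because Npl is the strongest riser, on chr1:153549748-153549777 of GRCm38.p6, minus strand, with the match CACGTG in capitals. The match begins 51 bases before that start, and 6.02% of 32851 RefSeq promoters hold CACGTG in the 250 bases before the start. A match is a sequence description and not a bound site.
Npl: cccgcgcggcccCACGTGgtcccgcagccc

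Pck1, phosphoenolpyruvate carboxykinase, the first committed enzyme of gluconeogenesis, was the most abundant of the large risers. Its levels were 504, 569.8 and 909.6 CPM in the controls and 1469.9, 1443.8 and 1600.0 CPM with imeglimin. The third control was the nearest to the treated libraries and still lay below all of them. Pck1 was 2.28-fold higher (log2 1.19 ± 0.19 SE, adjusted p = 0.0244), and the call held in 8 of 14 alternative fits. Fbp1, fructose-bisphosphatase 1, a later step of the same pathway, fell, from 51.6 to 63.5 CPM to 30.1 to 44.5 CPM (log2 -0.65 ± 0.13 SE, adjusted p = 0.0461, and 0.0679 with the replicate block). Of the 13 genes listed for gluconeogenesis and fructose metabolism these 2 were called, beside 1.16% of all genes tested, and the list median was 0.03. The sequence before the Pck1 start is printed because it holds, beside the textbook cyclic AMP response of this gene, the 8 letters TTACGTCA, which 0.447% of promoters hold on either strand in the same window, and the nuclear receptor half-site AGTTCA, which 11.8% hold. It covers chr2:173152823-173153047 of GRCm38.p6, plus strand, with both matches in capitals.
Pck1: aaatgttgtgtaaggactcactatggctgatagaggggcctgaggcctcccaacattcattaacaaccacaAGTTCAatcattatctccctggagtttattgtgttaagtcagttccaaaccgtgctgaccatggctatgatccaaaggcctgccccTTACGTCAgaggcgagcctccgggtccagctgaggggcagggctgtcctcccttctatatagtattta

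None of the 11 listed hexose transporters was called in either direction, beside 1.16% of all genes tested. Slc2a9, of the Slc2a gene family but outside the list, was looked up afterwards and was called lower. Its log2 difference was -0.52 (adjusted p = 0.0424, and 0.031 with the replicate block, called in 5 of 14 fits). Slc5a1, the sodium-coupled glucose transporter of the brush border, stood at 3778, 4538 and 5105 CPM in the controls and at 4914, 5282 and 5318 CPM with imeglimin, and its 95% interval ran from -0.04 to 0.46 on the log2 scale. Slc2a2, the basolateral glucose transporter, had the smallest p of the list (log2 -0.34 ± 0.08 SE, adjusted p = 0.07). Of 27 glycolysis genes and 18 brush border hydrolases, none passed the test. Hk2 differed by a log2 value of 0.06 ± 0.11 SE and Hkdc1, a further hexokinase, by 0.14 ± 0.08 SE. The 3 incretin and satiety hormone genes Gcg, Gip and Cck had log2 differences of 0.02, -0.10 and -0.02, and none of the 13 gut hormone genes was called.

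Among the other risers, Fam151a, a gene of unsettled function, went from 3.08, 4.08 and 4.13 CPM to 6.75, 12.3 and 12.9 CPM. The first imeglimin library was lower than the others yet above all controls (log2 1.501 ± 0.23 SE, adjusted p = 0.0223, called in 10 of 14). In the joined fit of segments described below, the control mean of Fam151a was 4.38 CPM in the proximal and 162 CPM in the middle segment. Whether the exact place of the piece had a part in its rise was not tested. Frat1, which binds GSK3 and favours Wnt signalling, rose with little spread, from 15.8, 16.6 and 19.1 CPM to 31.5, 31.2 and 29.4 CPM (log2 0.84 ± 0.09 SE, adjusted p = 0.00445, called in 14 of 14). Of the 23 stem cell and Wnt target genes none was called. Mgat4c, a glycosyltransferase of the N-glycan branching family, rose by 1.45 ± 0.22 SE on the log2 scale (adjusted p = 0.0223, called in 10 of 14). Clca3a1, of the calcium-activated chloride channel regulator family, rose from 26.8, 28.1 and 28.4 CPM to 44.6, 56.5 and 57.0 CPM (log2 0.92 ± 0.13 SE, adjusted p = 0.0169, called in 11 of 14). Bcl2l15, a Bcl-2 family member, rose by 0.72 ± 0.09 SE (adjusted p = 0.00957, called in 12 of 14). Ddah1, which breaks down the nitric oxide synthase inhibitor dimethylarginine, rose by 0.92 ± 0.14 SE (called in 10 of 14). The transcriptional co-regulator Cited2 rose by 0.76 ± 0.13 SE (called in 9 of 14). Prr5l, Dusp9, Cables1, Mylip, Retreg1 and Ptgr1 completed the 15 largest rises, with log2 fold changes from 0.68 to 1.18, and each of them was called in fewer than 9 of the 14 fits. Prr5l and Cables1 were not called with the replicate block (adjusted p = 0.0535 and 0.0555).

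**Figure D2:**
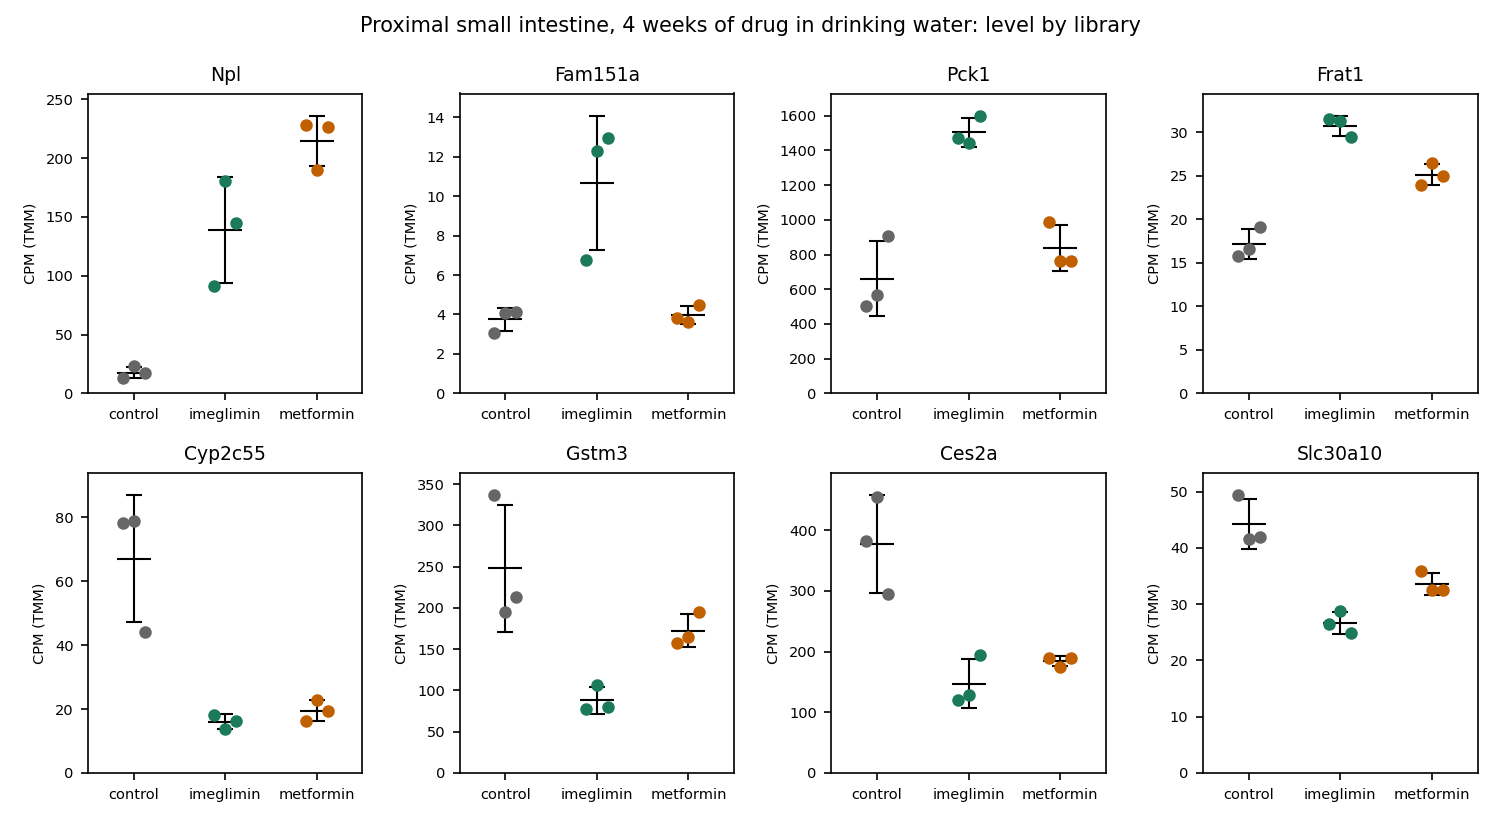
Points are the 3 libraries of each group, the horizontal bar is the mean and the whisker the SD, in CPM on axes that start at 0. Npl, Fam151a, Pck1 and Frat1 are higher and Cyp2c55, Gstm3, Ces2a and Slc30a10 lower in every imeglimin library than in every control, and the metformin libraries match the controls for Fam151a but not for Npl.

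Of 48 cytochrome P450, carboxylesterase and glucuronosyltransferase genes of foreign compound metabolism tested, 4 fell and none rose, beside a background of 0.763% of genes called lower. With the replicate block 3 of the 4 were called. The median of the list was -0.12, and 14 of the 48 had all imeglimin libraries below all controls, beside 11% of all genes tested. Cyp2c55, a P450 of fatty acid and xenobiotic oxidation, stood at 78.2, 78.9 and 44.0 CPM in the controls and at 18.2, 13.7 and 16.2 CPM with imeglimin. The third control was lower than the other two but still well above each treated library. Cyp2c55 fell by 2.06 ± 0.21 SE on the log2 scale (adjusted p = 0.00445), and the call held in 14 of 14 alternative fits. Ces2a, a carboxylesterase that hydrolyses ester and amide drugs, went from 382, 455 and 295 CPM to 120.2, 128 and 194 CPM. Here the third library of each group drew nearest to the other group without crossing (log2 -1.36 ± 0.18 SE, adjusted p = 0.0133, called in 12 of 14). Cyp2c66 fell by 1.22 ± 0.19 SE on the log2 scale (adjusted p = 0.0238, called in 10 of 14).

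Cyp3a11, the main drug-metabolising P450 of mouse gut and liver, was the most abundant of the 4 and is named outside the rule for named genes, after its values were seen. It stood at 1818, 2210 and 1489 CPM in the controls and at 956, 924 and 1191 CPM with imeglimin. No library crossed, and the fall was 0.84 ± 0.16 SE on the log2 scale (adjusted p = 0.0386, and 0.0653 with the replicate block). Other members, also looked up afterwards except Ces2e, had values near 0: Cyp2b10 differed by -0.15, Cyp3a13 by 0.11, Ces2e by -0.11 and Ugt1a1 by -0.08 on the log2 scale, none of them called. Nr1i2 and Nr1i3, the nuclear receptors PXR and CAR that switch on many of these genes, had log2 differences of 0.15 and -0.02 (adjusted p = 0.45 and 0.96). Cyp2c and Ces2 genes lie in clusters of similar copies, and reads shared between copies make the split among them uncertain.

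Sequences before the starts of 3 of the 4 fallers are shown because PXR and CAR bind pairs of half-sites close to AGGTCA and AGTTCA. Both letters were searched on both strands in the 250 bases before the start, where 14% of promoters hold AGGTCA and 11.8% hold AGTTCA. Ces2a holds AGGTCA once, 226 bases before its start. Cyp3a11 holds AGGTCA 162 bases before the start and, on the other strand, AGTTCA 142 bases before it. Cyp2c55 holds neither, which says only that these letters are not in this window. The stretches cover chr19:39006769-39007018 (Cyp2c55, plus strand), chr8:104733753-104734002 (Ces2a, plus strand) and chr5:145879965-145880104 (Cyp3a11, minus strand) of GRCm38.p6, with matches in capitals.
Cyp2c55: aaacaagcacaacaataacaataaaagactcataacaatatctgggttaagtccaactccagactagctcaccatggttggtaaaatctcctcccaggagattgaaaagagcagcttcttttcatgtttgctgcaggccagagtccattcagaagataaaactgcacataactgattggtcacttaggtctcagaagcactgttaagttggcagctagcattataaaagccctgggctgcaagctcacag
Ces2a: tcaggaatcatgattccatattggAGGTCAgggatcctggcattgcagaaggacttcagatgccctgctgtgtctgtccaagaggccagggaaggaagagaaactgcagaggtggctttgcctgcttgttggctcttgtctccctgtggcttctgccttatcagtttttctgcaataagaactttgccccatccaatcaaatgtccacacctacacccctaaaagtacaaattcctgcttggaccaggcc
Cyp3a11: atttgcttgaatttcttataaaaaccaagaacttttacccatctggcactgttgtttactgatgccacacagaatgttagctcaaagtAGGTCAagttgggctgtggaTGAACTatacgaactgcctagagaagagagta

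Gstm3 and Gstm1 are glutathione S-transferases of the mu class, enzymes that join glutathione to reactive compounds. Gstm3 stood at 337, 195 and 213 CPM in the controls and at 77.1, 107 and 80.5 CPM with imeglimin. The first control was the highest of the 6 libraries, and the lowest control was still well above all treated libraries. Gstm3 fell by 1.49 ± 0.19 SE on the log2 scale (adjusted p = 0.0103), and the call held in 14 of 14 alternative fits. Gstm1 fell by 0.89 ± 0.16 SE (adjusted p = 0.0368, and 0.0666 with the replicate block), and the neighbouring pseudogene Gstm2-ps1 by 1.48 ± 0.27 SE (adjusted p = 0.0382, and 0.0689 with the block). Copies of this class are similar in sequence, so the split of reads among them is uncertain. The rest of the 30 NRF2 and glutathione genes did not follow. Gstm3 and Gstm1 were the 2 called, beside 1.16% of all genes tested, and the median was -0.001. Gclm, Gsr and Nqo1, looked up afterwards, had log2 differences of 0.42, 0.47 and -0.24, none called.

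Some transporters of metals, phosphate and bile acids fell. In the list of 15 zinc, copper and metallothionein genes 3 fell and none rose, beside 0.763% of all genes tested called lower (1 fell with the replicate block). Slc30a10, an exporter of manganese, stood at 49.4, 41.5 and 41.9 CPM in the controls and at 26.5, 28.8 and 24.8 CPM with imeglimin. The spread within each group was small beside the gap between them (log2 -0.73 ± 0.09 SE, adjusted p = 0.00956, called in 14 of 14). Slc39a4, the zinc importer of the brush border, fell by 0.43 ± 0.08 SE and Slc30a7, a zinc transporter of the Golgi, by 0.34 ± 0.06 SE (adjusted p = 0.0423 and 0.0386, and 0.0532 and 0.0653 with the replicate block). Slc34a2, the sodium-coupled phosphate importer, went from 100.1, 66.0 and 131.7 CPM to 27.4, 29.9 and 35.0 CPM. The controls were scattered, the treated libraries were not, and the gap was clear of both (log2 -1.69 ± 0.27 SE, adjusted p = 0.0243, and 0.0509 with the block). It was the single gene called among 8 of calcium and phosphate handling. Slc51a and Slc51b, the pair that exports bile acids to the blood, fell by 0.29 ± 0.06 SE and 0.41 ± 0.08 SE (adjusted p = 0.0461 and 0.0424, and 0.0783 and 0.0512 with the block). They were the 2 genes called of 11 in bile acid transport, and stayed called in 1 and 3 of the 14 fits. In the other direction, Cftr, the chloride and bicarbonate channel, rose from 87.9, 86.9 and 87.2 CPM to 114, 119 and 112 CPM (log2 0.39 ± 0.05 SE, adjusted p = 0.0161, called in 11 of 14). Flvcr2, a choline transporter, fell by 1.60 ± 0.25 SE (adjusted p = 0.0223, called in 10 of 14).

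Of 30 immediate early and MAP kinase genes, 3 fell and 1 rose, beside 0.763% of all genes tested called lower and 0.393% called higher, and the median was -0.12. Ereg, epiregulin, a ligand of the EGF receptor, stood at 7.71, 5.89 and 5.99 CPM in the controls and at 2.84, 2.22 and 3.05 CPM with imeglimin. Every treated library was under all the controls (log2 -1.27 ± 0.18 SE, adjusted p = 0.0169, called in 12 of 14). Dusp6, a phosphatase induced by ERK signalling that turns ERK off, fell by 1.07 ± 0.18 SE (adjusted p = 0.0291, and 0.0535 with the replicate block). Atf3, a stress-induced transcription factor, fell by 0.64 ± 0.13 SE (adjusted p = 0.0489, and 0.0701 with the block, called in 1 of 14). It was the 1 gene called of 32 in the integrated stress response. Areg, a further EGF receptor ligand, had a log2 difference of -0.84 ± 0.22 SE and did not pass (adjusted p = 0.0872). Jund, an AP-1 subunit, rose from 141, 146 and 139 CPM to 183, 185 and 172 CPM (log2 0.34 ± 0.06 SE, adjusted p = 0.0386, called in 4 of 14). Among 19 circadian clock genes, Arntl, the partner of Clock, fell by 0.67 ± 0.14 SE (adjusted p = 0.0461, called in 3 of 14). The list median was 0.32 with 9 members higher at an unadjusted p under 0.05, beside 2961 of 17295 genes tested in either direction. The time of day of sampling is not given in the labels.

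No gene of the respiratory chain passed the test. Of 36 nuclear-encoded complex I subunits 35 had a positive log2 difference and 11 had all imeglimin libraries above all controls, beside 9.93% of all genes tested, but 0 were called and the median was 0.13. DESeq2 called 2 of them higher. The 36 nuclear-encoded subunits of complexes II to V had a median of 0.17, with 13 higher at an unadjusted p under 0.05 and 0 called by edgeR, and DESeq2 called 4 higher. The integrated stress response genes Trib3, Chac1, Asns, Atf4 and Mthfd2 and the stress hormone Gdf15 were not called, and Gdf15 stood at 0.595 to 1.45 CPM in the controls and 0.791 to 1.14 CPM with imeglimin. Hspe1, the mitochondrial co-chaperonin of HSP60, rose by 0.44 ± 0.08 SE (adjusted p = 0.0419, and 0.0653 with the replicate block) as the single gene called in both the 18 heat shock chaperones and the 13 genes of the mitochondrial unfolded protein response. Among 19 targets of hypoxia-inducible factor, Ndrg1 rose by 0.54 ± 0.09 SE and Egln3, an oxygen-sensing prolyl hydroxylase, fell by 0.51 ± 0.09 SE (adjusted p = 0.0253 and 0.0382). Over all genes tested 0.393% were called higher and 0.763% lower. Of all 67 lists, 45 held no called gene.

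Several genes of immune, vascular and connective tissue cells fell. In bulk tissue, fewer cells of a type and less RNA per cell cannot be told apart. The largest called fold change was in the immunoglobulin light chain variable gene Igkv8-24, which stood at 22.1, 24.4 and 11.2 CPM in the controls and at 1.14, 0.858 and 0.924 CPM with imeglimin. Treated libraries were close to each other and far below each control (log2 -4.29 ± 0.45 SE, adjusted p = 0.00445, called in 14 of 14). Igkv6-23 fell by 1.19 ± 0.17 SE, Igkv5-43 by 2.41 ± 0.40 SE and Ighv1-59 by 2.82 ± 0.42 SE, each called in at least 9 of the 14 fits. Igkv8-19 fell by 3.24 ± 0.68 SE and was not called with the replicate block (adjusted p = 0.0783). Variable genes are near-identical copies and each plasma cell clone uses its own, so these values are uncertain. Of 18 B and plasma cell markers tested, none was called. At an unadjusted p under 0.05, 8 of them were lower, beside 2961 of 17295 genes tested in either direction. The summed level of the B and plasma cell markers was 6467 to 7481 CPM in the controls and 4525 to 5865 CPM with imeglimin.

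Against 0.763% of all genes tested called lower, 2 of 17 endothelial, 3 of 20 fibroblast and 2 of 19 macrophage and dendritic cell markers fell. The 2 endothelial genes were Pecam1, the adhesion protein CD31, and Kdr, the VEGF receptor 2. Pecam1 stood at 20.6, 17.0 and 19.6 CPM in the controls and at 11.9, 12.0 and 12.5 CPM with imeglimin. All treated libraries agreed closely and lay below the controls (log2 -0.65 ± 0.09 SE, adjusted p = 0.0169, called in 10 of 14). Kdr fell by 0.62 ± 0.13 SE (adjusted p = 0.0453, and 0.0828 with the replicate block, called in 3 of 14). The median of the 17 was -0.60, beside 0.0002 over all genes. In 12 of them all imeglimin libraries lay below all controls, beside 11% of all genes tested. The summed level was 159 to 188 CPM in the controls and 107 to 128 CPM with imeglimin. The 3 fibroblast genes were Col1a2, a chain of type I collagen, which fell by 0.54 ± 0.11 SE, the matrix proteoglycan Dcn, which fell by 0.54 ± 0.11 SE, and the growth factor Bmp4, which fell by 0.72 ± 0.15 SE. With the replicate block none of the 3 was called (adjusted p = 0.0651, 0.0701 and 0.0748), and they were called in 4, 2 and 1 of the 14 fits. The fibroblast median was -0.47, while the summed levels of 682 to 860 CPM and 622 to 731 CPM overlapped. Of the macrophage and dendritic cell markers Csf1r, the CSF-1 receptor, fell by 0.84 ± 0.16 SE and Lyz2, lysozyme M, by 0.55 ± 0.11 SE, both lost with the block (adjusted p = 0.0702 and 0.0651). Their median was -0.55, and their summed levels of 465 to 522 CPM and 441 to 501 CPM overlapped. The T cell co-receptor Cd4 fell by 0.76 ± 0.16 SE (adjusted p = 0.0461, and 0.0689 with the block) as the single gene called of 21 T and NK cell markers.

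Summed hemoglobin and other erythroid transcripts, which mark blood in the tissue, were 21.8 to 28.0 CPM in the controls and 8.67 to 16.2 CPM with imeglimin, and no erythroid gene was called. Summed Paneth cell markers were 4067 to 7502 CPM in the controls and 2995 to 4341 CPM with imeglimin, which overlapped. None of 13 was called, and 13 of 13 had a negative log2 difference with a median of -0.54. At an unadjusted p under 0.05, 7 were lower, beside 2961 of 17295 genes tested in either direction. Smooth muscle markers summed to 2400.1 to 2859 CPM and 2698 to 3014 CPM, which overlapped, with none of 19 called, and enterocyte and goblet cell markers overlapped between the groups with none called. Upk3b, a mesothelial marker of low level, rose by 1.37 ± 0.27 SE (adjusted p = 0.0443, and 0.0783 with the replicate block). The list of 6 mesothelial markers summed to 627 to 706 CPM in the controls and 778 to 924 CPM with imeglimin. It includes the keratin Krt19, which is not confined to mesothelium, so the sum does not measure the amount of mesothelium. Whether the amount of blood, Paneth cells or wall tissue in each piece had a part in the changes was not tested. Of 23 pancreatic acinar markers 17 were under 1 CPM in each library, and Amy2b was at 0. Of the 8 that were tested none was called, 6 were lower at an unadjusted p under 0.05 and 2 had a positive log2 difference. Their median was -0.52, and whether attached pancreas had a part was not tested.

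**Figure D3:**
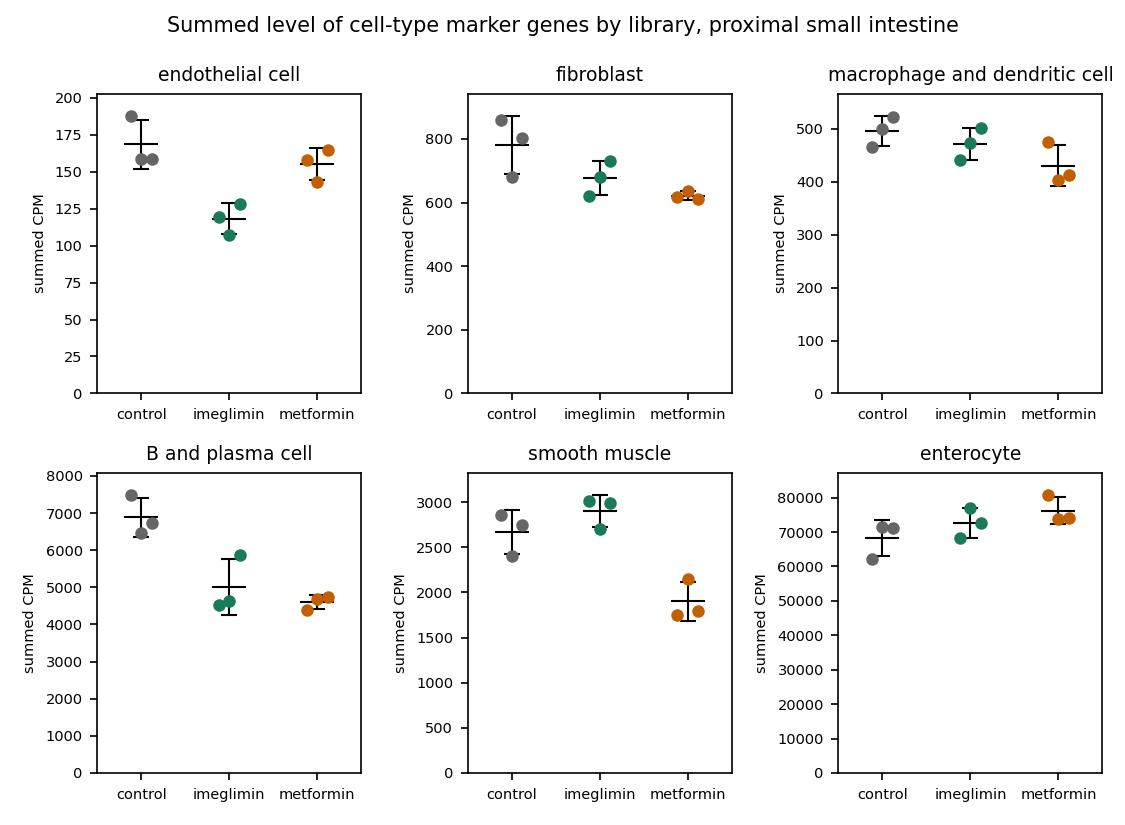
Each panel gives the summed CPM of the markers of 1 cell type in the 3 libraries of each group, with the mean as a bar and the SD as a whisker on axes that start at 0. The endothelial sum is lower in all 3 imeglimin libraries than in every control and metformin library, and the smooth muscle sum is lower in the metformin libraries.

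Metformin at the same concentration in the water and the same time gives a comparison of related molecules, 1 pair, at a matched 3 mg/mL, although the amounts the mice drank are not given. The contrasts of the 2 drugs with control share the 3 control libraries, so their similarity is no independent result and the values are given side by side. Imeglimin and metformin differed directly in 189 genes, 1.09% of those tested, 114 higher with imeglimin (0.659%) and 75 lower (0.434%). Metformin against control gave 710 called genes (4.11%), 285 higher (1.65%) and 425 lower (2.46%). Without metformin library 1 or without metformin library 3 the count for imeglimin against metformin was 0 in place of 189, and 2246 and 2285 genes had an unadjusted p under 0.05. Of the 200 genes that changed with imeglimin against control, 19 also differed from metformin. The 95% interval of the difference lay within 1 log2 unit of 0 for 76.5% of genes tested, and its median half-width was 0.31.

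For most of the 200 genes the difference between the drugs did not pass the test, and 5 of them are described here. Npl reached 227.7, 190.2 and 226 CPM with metformin, a log2 rise of 3.60 over control beside 2.97 with imeglimin. Every metformin library lay above every imeglimin library, and the interval of the imeglimin minus metformin difference was -1.12 to -0.14 (adjusted p = 0.18 over all genes tested). Cyp2c55 was at 16.1, 22.9 and 19.5 CPM with metformin, with an interval of -0.74 to 0.18, and Slc34a2 had an interval of -0.60 to 0.57. Intervals for Ces2a and Ereg were -0.72 to 0.08 and -0.57 to 0.23. A p that misses the threshold does not show that the drugs act alike on these genes.

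Other genes separated the molecules. Fam151a stood at 3.80, 3.60 and 4.46 CPM with metformin, within the range of the controls or close to it, and was higher with imeglimin by 1.43 ± 0.23 SE on the log2 scale (adjusted p = 0.021, called in 9 of 14 alternative fits). Jund was at 131, 143 and 128 CPM with metformin and was higher with imeglimin by 0.43 ± 0.06 SE (adjusted p = 0.015, called in 11 of 14). Mylip, a ubiquitin ligase that degrades the LDL receptor, was higher with imeglimin than with metformin by 0.83 (adjusted p = 0.022). Gstm3 was at 157, 164 and 195 CPM with metformin and lower with imeglimin by 0.97 ± 0.19 SE (adjusted p = 0.039, and 0.0857 with the replicate block). Pecam1 was lower with imeglimin than with metformin by 0.49 (adjusted p = 0.035, and 0.0612 with the block). Pck1 was at 989, 762 and 763 CPM with metformin, and its interval of 0.43 to 1.26 came with an adjusted p of 0.061, so it did not pass. The largest differences with imeglimin lower were in Ighv3-1, Cyp4a10, a fatty acid hydroxylase under PPAR alpha, the thiamine transporter Slc19a3, Ces2b and Gstm3, with log2 values from -1.62 to -0.97. With imeglimin higher they were in Fam151a, Sntg2, Faxc, Hspa2 and Rims1, from 1.26 to 1.43. Of those 5, all but Fam151a were lower with metformin than in the controls and not called for imeglimin against control. Smooth muscle markers moved beside them: 14 of 19 were higher with imeglimin than with metformin, beside 0.659% of all genes tested. The smooth muscle sum was 1753 to 2150 CPM in the metformin libraries. What part the amount of muscle had in these differences was not tested.

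**Figure D4:**
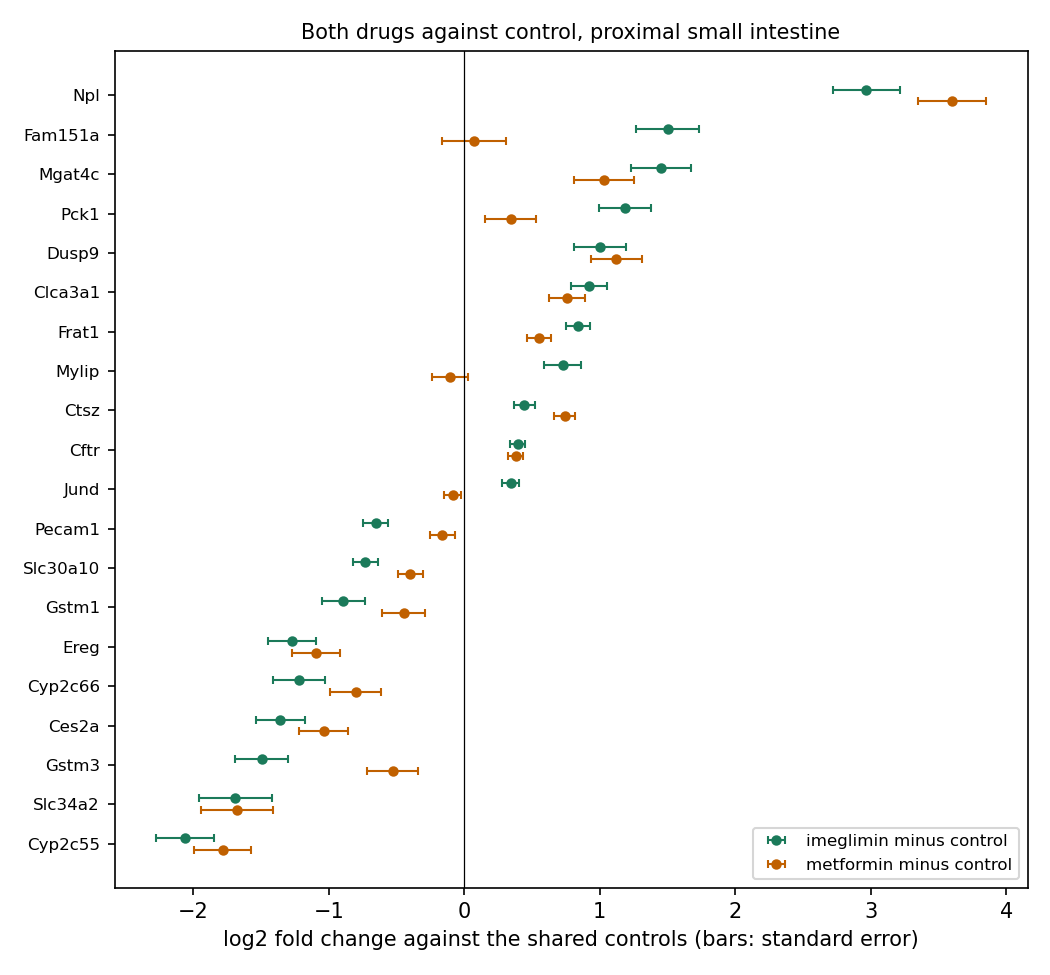
Log2 fold changes of 20 genes against the same 3 controls, imeglimin in green and metformin in orange, with bars of 1 standard error. Npl and Cyp2c55 lie far from 0 under both drugs, whereas Fam151a and Mylip lie near 0 under metformin.

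Along the gut, the imeglimin effect in the proximal segment was compared with that in the other segments by an interaction test in a joined fit of 36 libraries and 20053 genes. Same-numbered libraries of different segments may come from the same mice, which the labels do not settle. The joined fit treated all 36 libraries as independent. No gene differed between proximal and middle small intestine by edgeR (0 called, 882 at an unadjusted p under 0.05, 10 called by DESeq2). Between proximal and distal small intestine 14 genes differed (0.0698%), 3 with the higher log2 fold change in the proximal segment and 11 (0.0549%) with the lower. That count was 0 when the fit held the 4 groups alone and when replicate 1 or replicate 3 was dropped throughout, and 3 without replicate 2. Against the colon 563 genes differed (2.81%), 182 with the higher (0.908%) and 381 with the lower (1.9%) log2 fold change in the proximal segment. Dropping replicate 1, 2 or 3 throughout gave 93, 22 and 15. Segments came in separate tables, so that any difference in handling between them is part of this comparison. Control levels also differed along the gut. Gstm1 fell and had control means of 156 CPM proximal and 49.0 CPM middle, and Ddah1 rose, with 4.00 and 16.9 CPM. Other examples go the opposite way: Frat1 rose, with 20.0 and 12.2 CPM, and Ereg fell, with 7.60 and 16.2 CPM. Whether the place of the cut had a part in these changes was not tested.

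Npl rose in each part of the small intestine and was not called in the colon. Its log2 fold change was 2.97 ± 0.24 SE in the proximal, 2.47 ± 0.23 SE in the middle and 3.02 ± 0.25 SE in the distal segment, and 0.10 ± 0.34 SE in the colon. The difference between proximal segment and colon was 2.87 (adjusted p = 0.000343), and without replicate 3 the adjusted p was 0.11. Cyp2c55 fell by a log2 value of 2.06 in the proximal, 2.28 in the middle and 2.16 in the distal segment but had a value of 1.02 ± 0.34 SE in the colon, a difference of -3.09 (adjusted p = 0.00123, and 0.104 without replicate 2). Gstm3 went from -1.49 ± 0.17 SE in the proximal through -0.77 ± 0.17 SE in the middle and 0.20 ± 0.18 SE in the distal segment to 0.51 ± 0.17 SE in the colon. Its proximal effect differed from the distal one by -1.70 (adjusted p = 0.00213) and from that in the colon by -2.005 (adjusted p = 3.71e-05). Ces2b, a second carboxylesterase, had log2 values of -0.82 in the proximal segment, which did not pass, and 1.85 in the colon, and the difference of -2.67 passed (adjusted p = 3.75e-05). Cemip, which breaks down hyaluronan, fell by 1.26 in the proximal fit (adjusted p = 0.0393, and 0.0673 with the replicate block) and had a value of 1.53 ± 0.30 SE in the distal segment, a difference of -2.79 (adjusted p = 0.00213). Cftr differed between these segments by 0.92 (adjusted p = 0.0369). In this joined fit its distal fall was called (log2 -0.53 ± 0.12 SE, adjusted p = 0.0146). Its proximal rise was not (log2 0.39 ± 0.12 SE, adjusted p = 0.187). None of the distal differences of Gstm3, Cemip and Cftr was called in the 4 groups alone or without replicate 1 or 3.

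Several genes that rose with imeglimin in the colon were not called in the proximal segment. Tfrc, the transferrin receptor, stood at 127 to 147 CPM in the proximal controls and 122 to 146 CPM with imeglimin, a log2 value of 0.00 with a 95% interval of -0.25 to 0.25, while the colon value was 2.65 ± 0.22 SE. The difference of -2.65 had an adjusted p of 9.82e-06. Hkdc1 had a proximal value of 0.14 and a colon value of 3.15 ± 0.21 SE, a difference of -3.004 (adjusted p = 5.59e-07), and both differences were called in 8 of 8 alternative fits. Ces2e differed in the same sense by -1.69 (adjusted p = 0.00012), and Mthfd2 and Asns, enzymes of folate and asparagine synthesis, by -1.55 and -1.58 (adjusted p = 0.0141 and 0.0229, the latter 0.0659 with the replicate block).

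**Figure D5:**
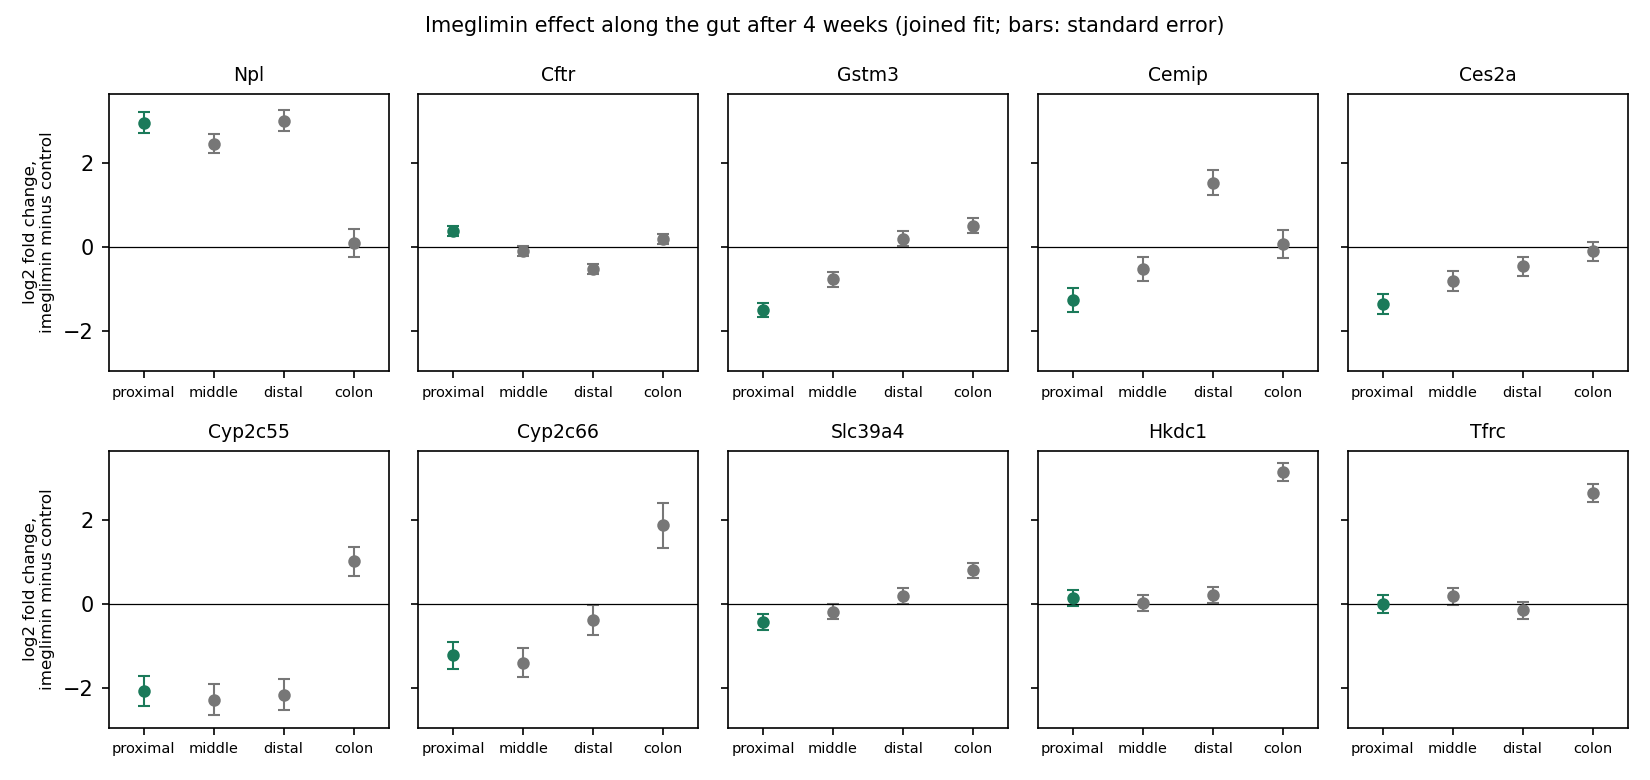
Log2 fold change of imeglimin against control for 10 genes in the 4 segments, from the joined fit, with bars of 1 standard error and the proximal value in green. Npl lies near 3 in each part of the small intestine and near 0 in the colon, Cyp2c55 lies below 0 in each part of the small intestine and above 0 in the colon, and Hkdc1 and Tfrc lie near 0 in each part of the small intestine.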

How the data were processed

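The deposited tables hold raw integer counts for 45777 gene symbols, 1 table per segment with 9 libraries each, and 0 of their per-sample columns went unused. HISAT2, StringTie, Trimmomatic and FastQC are listed, without versions, in the submitters' processing notes, as are the builds mm10 and GRCm39, without roles. Libraries were made with a stranded mRNA kit, per the labels' protocols, and the strand setting of the counting step is not stated there. The 4 tables of the 4-week experiment shared 45751 symbols.

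The proximal counts of all 9 libraries were fitted together, so that the 3 groups share 1 estimate of the spread, with edgeR 4.0.16 in R 4.3.3 (TMM, filterByExpr, quasi-likelihood F test, Benjamini-Hochberg, threshold 0.05). The joined fit held 36 libraries with totals from 31659681 to 47250042. Standard errors are the log2 fold change divided by the root of F. Replicates of each group differed by more than sampling noise (chi-square per gene of 12.44 or more), and 51.3% of counts from 1 to 50 were even. Fits were tested on simulated counts. For imeglimin against control 56% of the genes changed 1.5-fold were called and 100% of those changed 2-fold. Of the 196 calls 18 were on unchanged genes. For the difference between proximal segment and colon 22% and 74% were called, and 5 of 144 calls were on unchanged genes.

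Named genes were the 15 largest called rises and falls with at least 5 CPM and groups that do not overlap, up to 3 called members per list (67 lists, 47 of pathways and 20 of markers), the 5 largest differences each way from metformin, the 5 clearest per segment interaction, and a fixed set. Members and lists were chosen with earlier results of these data known. Alternatives were RLE scaling, DESeq2 1.42.0, no filter, the batch number as a block, fits of the compared groups alone, and dropping each library in turn. In the joined fit the block was the batch number within each segment, so it could not account for mice shared between segments. There each replicate number was dropped throughout in place of single libraries.

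By the labels' batch number the replicate numbers pair the libraries. The correlation of deviations between same-numbered libraries was over 0.1 in 0 of 9 pairs (0.01 to 0.04 between control and imeglimin). Promoters are RefSeq's (GRCm38.p6), with entries for 154 of the 200 called genes, and bases inside an annotated transcript were left out but for 30 bases at Npl. The acute and single-cell files were not used here.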

Additional observations from a re-analysis of the deposited data

Results flagged for a closer look

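The imeglimin effect on some genes differed between the proximal segment and another by the interaction test, given here as the log2 fold change in the proximal segment minus that in the other. Against the distal small intestine the difference was -1.70 for Gstm3, -2.79 for Cemip, 0.92 for Cftr and -1.71 for Ces2b, with adjusted p from 0.00213 to 0.0391. Against the colon it was -3.004 for Hkdc1, -2.65 for Tfrc, -2.005 for Gstm3, -2.67 for Ces2b, -1.17 for Zfyve16, -1.69 for Ces2e, 0.55 for Yy1 and 2.87 for Npl, with adjusted p of 0.000343 or smaller. It was -3.09 for Cyp2c55, -1.06 for Gstm1, -3.10 for Cyp2c66, -1.31 for Slc51b, -1.24 for Slc39a4, -1.55 for Mthfd2, 1.28 for Cables1 and 1.49 for Mylip, with adjusted p from 0.00123 to 0.0202. It was -0.36 for Slc30a7, -1.58 for Asns, -1.59 for Gstm2-ps1, -1.47 for Kdelr3, -1.26 for Ces2a and -1.003 for Ereg, with adjusted p from 0.0219 to 0.0339. With the replicate block Mylip, Slc30a7, Asns, Gstm2-ps1, Kdelr3 and Ces2a were not called (adjusted p from 0.0539 to 0.0827). Cyp2c66 was near the floor in the colon, with means of 0.132 CPM in the controls and 0.460 CPM with imeglimin, so the size of its difference is uncertain. Of these 26 differences 5 were called in each of 8 alternative fits, Hkdc1, Tfrc, Gstm3, Ces2b and Zfyve16, all against the colon.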

How the results depend on the processing

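For imeglimin against control the 200 calls became 819 by DESeq2, 80 with the replicate block and 30 in a fit of the 2 groups alone, and leaving out 1 library gave 9 to 196. For imeglimin against metformin the 189 calls became 819 by DESeq2, 94 with the block and 392 in the 2 groups alone, and 0 to 265 with 1 library left out. The segment difference with the middle small intestine went from 0 to 10 by DESeq2. With the distal segment 14 became 80 by DESeq2, 5 with no filter, 8 with the block, 0 in the 4 groups alone and 0 to 3 with 1 replicate number left out. With the colon 563 became 960 by DESeq2, 355 with no filter, 302 with the block and 15 to 93 with 1 replicate number left out. Of the listed genes 35 were called, 135 by DESeq2, 16 with the block, 8 in the 2 groups alone and 4 to 34 with 1 library left out. Without 1 library the count for imeglimin against control was 11 (control 1), 113 (control 2), 39, 9 and 35 (imeglimin 1, 2 and 3) and 91, 56 and 68 (metformin 1, 2 and 3). Against metformin it was 43, 111 and 45 (imeglimin 1, 2 and 3) and 0, 140 and 0 (metformin 1, 2 and 3). RLE scaling (172) and no filter (144) stayed within 1.5 times. No named called gene changed direction in any alternative, and 6 of 55 named called genes stayed called in all 14. Of 938 list medians 854 stayed within 1 SD of their first value. That SD is the spread of the list's mean log2 level over the imeglimin libraries and not of the median fold change. It was 0.80 for the adipocyte list, so it is a loose measure for some lists. The cause of the changes was not tested. At 3 libraries a group and totals above 32246196 counts, the median 95% interval reached 0.31 log2 units to either side of the estimate.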

Other observations

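The genes named here were singled out after their values were seen, so they stand for no group. Stab1, a scavenger receptor, stood at 51.6, 35.6 and 49.5 CPM in the controls and at 22.7, 20.7 and 23.7 CPM with imeglimin (log2 -1.03 ± 0.12 SE, edgeR adjusted p = 0.00956, called in 13 of 14 alternative fits), and Cd93 and Thbd fell by 0.78 and 0.81 on the log2 scale (adjusted p = 0.0408 and 0.0413, and 0.0362 and 0.0535 with the replicate block). Cd55, the complement decay-accelerating factor, went from 68.1, 86.7 and 85.2 CPM to 42.5, 50.3 and 45.5 CPM, and Ppp1r10, a subunit of nuclear protein phosphatase 1, from 72.5, 77.7 and 75.2 CPM to 47.4, 46.0 and 42.4 CPM. No library of either gene crossed between the groups, and both were called in 14 of 14 fits. The transcription factors Irf4 and Bhlha15 fell by 0.87 and 0.69 (adjusted p = 0.0489 and 0.0424, and 0.0778 and 0.0729 with the block).

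Upward, Klf9, a transcription factor induced by glucocorticoids, went from 45.4, 45.8 and 47.7 CPM to 61.7, 67.7 and 68.6 CPM (adjusted p = 0.00957, called in 12 of 14). Slc34a3, a phosphate transporter of low level here, rose by 1.26 ± 0.26 SE on the log2 scale, opposite to Slc34a2 (adjusted p = 0.0489, called in 2 of 14). Fkbp4, St13 and Ppp5c rose by 0.38, 0.37 and 0.30 and Glud1, Got1 and Acy1 by 0.48, 0.41 and 0.41, with adjusted p from 0.0382 to 0.0488. With the replicate block Got1 alone of these 6 was called (adjusted p = 0.0499).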
